A study of Rattus norvegicus with 3 samples.

Results

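9 genes of retinoic acid handling were followed through 3 single-cell RNA libraries of the postnatal rat cochlea. They were taken by name: Aldh1a1, Aldh1a2 and Aldh1a3 (synthesis), Rbp4, Crabp1 and Crabp2 (carriage and binding), Rara and Rarb (sensing), and Cyp26b1 (breakdown). All 9 were found among the 32623 genes of the matrices. Untreated Sprague-Dawley rats were studied at postnatal day 1 (P1), 7 (P7) and 14 (P14), with tissue of 40 rats pooled into 1 library per stage. The tissue was cochlear basal membrane, with spiral ganglion, spiral ligament and stria vascularis dissected away. It was dissociated with enzymes, red cells were lysed and dead cells were removed on magnetic beads. No sorting for a cell type is described. Cells were captured on the 10x Genomics 3′ platform, which tags each captured RNA molecule with a unique molecular identifier (UMI). The analysis used 30641 barcodes, here called cells, that carried over 500 but under 5000 genes, 500 or more UMIs, and a mitochondrial share of UMIs below 25% (12779 at P1, 12581 at P7 and 5281 at P14).

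Retinoic acid is made from vitamin A. Retinol travels in blood on Rbp4, is oxidized to retinal, and retinal is oxidized to retinoic acid by the Aldh1a dehydrogenases. Crabp1 and Crabp2 bind retinoic acid inside cells, and Crabp2 is known to carry it to the nuclear receptors, of which Rara and Rarb are members. Cyp26b1 is a cytochrome P450 that hydroxylates retinoic acid and so ends its action. In the developing inner ear, both shortage and excess of retinoic acid are known to disturb hair cell and skeletal development. Cells that make the signal and cells that remove it can be different cells, so the question here was which cells carried each transcript and at which stage.

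The label attached to all 3 libraries was greater epithelial ridge cell, but the markers went against it. Of the 30641 cells, 18254 lay in 11 clusters called stroma-like, which carried Pdgfra, a fibroblast marker, and Pou3f4 and Tbx18, otic mesenchyme markers. Another 549 lay in 1 cluster with cochlear duct epithelium markers such as Epcam and Epyc. The other named classes were glia-like (3094 cells), endothelial-like (1262), pericyte-like including smooth muscle (682), macrophage-like (533), neuron-like (295, of which 288 at P1) and B lineage-like (290, of which 287 at P14). A further 5661 cells in 9 clusters stayed unnamed, and 21 hair cell-like cells were too few for a level. The median depth was 6565 UMIs per cell at P1 and 6878 at P7 but 1614 at P14. No stroma-like cluster held 50 or more cells both at P14 and at an earlier stage, so for stroma the P14 library and the P14 cell types cannot be told apart. The stroma-like cells of P1 and P7 also lay mostly in different clusters, and 6 of those clusters held 50 or more cells at both stages. With 1 library per stage no difference between stages could be tested. Levels are given as CPM, the UMIs of a gene per 1000000 UMIs summed over the cells named, with exact 95% Poisson intervals in brackets that cover counting error only. In such sums, fewer cells of a type and less RNA per cell cannot be told apart.

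Over whole libraries, the members did not move together. Rbp4 was higher at each later stage, and Cyp26b1 stood out at P14. Aldh1a2, Crabp1 and Rara were lower at each later stage. Aldh1a1, Crabp2 and Rarb were highest at P7. These levels depend on which cell types each library holds as well as on the level in each type.

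Aldh1a2 measured 109 CPM (107 to 111) at P1, 68.5 (66.8 to 70.2) at P7 and 24.2 (21.5 to 27.2) at P14. Aldh1a1 measured 23.9, 40.9 and 17.4 at the same stages, and its intervals did not overlap between any 2 stages. Aldh1a3 measured 14.0 at P1, 5.06 at P7 and 5.07 at P14. Thus the synthesis genes peaked at different stages, 2 of them at P1 and Aldh1a1 at P7.

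Rbp4 measured 5.98 CPM (5.50 to 6.48) at P1, 31.8 (30.7 to 33.0) at P7 and 104 (97.8 to 110) at P14. Crabp2 measured 59.8, 94.2 and 83.1. Crabp1 was scarce throughout, with 8.51, 5.46 and 1.46 CPM, the last from 17 UMIs. Of the carriers, only Rbp4 was higher at P14 than at both earlier stages.

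Rara measured 121, 96.6 and 58.4 CPM at P1, P7 and P14. Rarb measured 69.9, 79.2 and 53.8. Cyp26b1 measured 3.69 (3.32 to 4.09) at P1 and 3.63 (3.25 to 4.04) at P7, which overlap, and 18.1 (15.8 to 20.7) at P14.

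**Figure D1:**
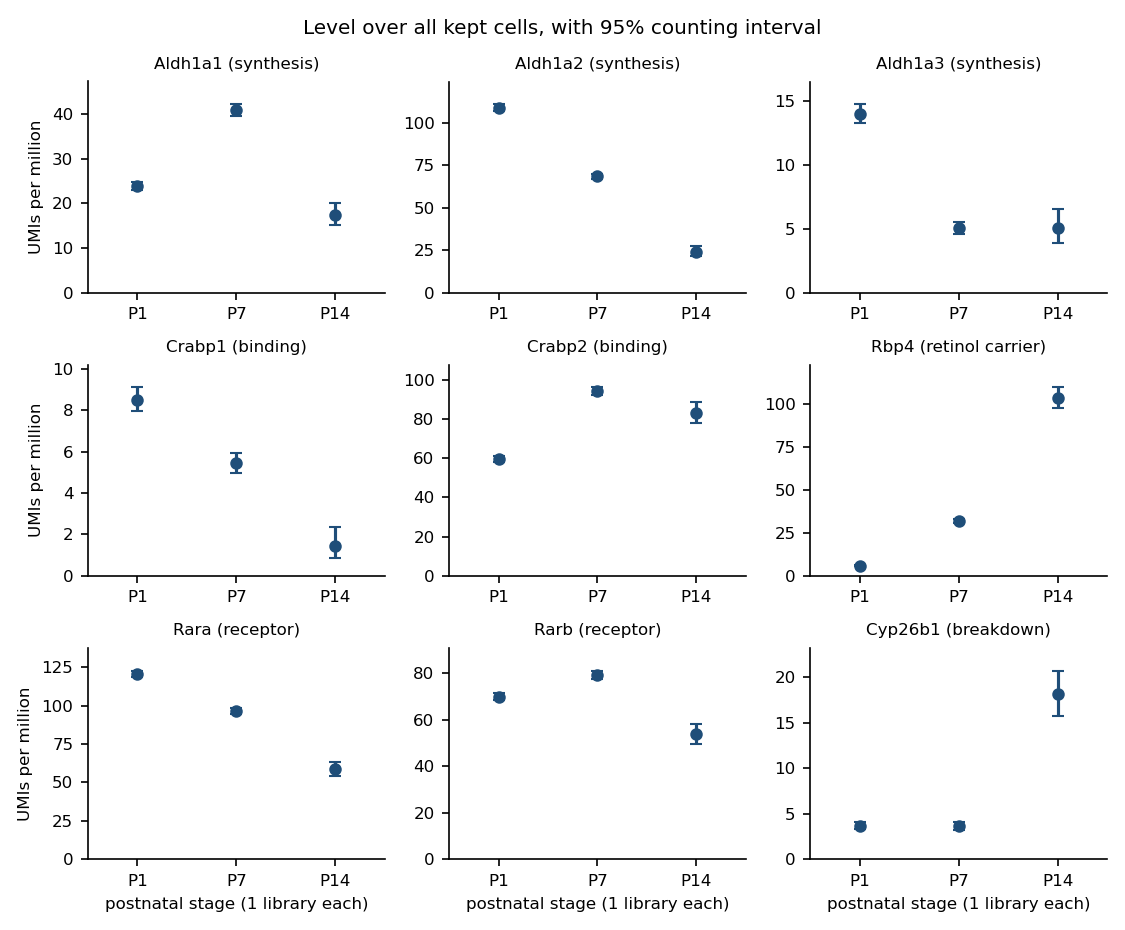
CPM of each of the 9 genes over all kept cells (vertical axis, linear from 0) at P1, P7 and P14 (1 library each). Points are levels and bars 95% counting intervals. Rbp4 is at 5.98 at P1 and 104 at P14, Aldh1a2 at 109 and 24.2, and Cyp26b1 at 3.69, 3.63 and 18.1.

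A member was counted as different between stages when its levels were at least 2-fold apart with more than 3 UMIs in both libraries. Rbp4 was the 1 of 9 members counted as higher at P7 than at P1 (ratio 5.32, 95% counting interval 4.87 to 5.82), where 8.61% of the 7750 genes at 10 or more CPM were so. Aldh1a3 was the 1 of 9 counted as lower (ratio 0.36), against 5.29% of genes. From P7 to P14, Rbp4 (ratio 3.26) and Cyp26b1 (ratio 4.99) were counted as higher, 2 of 9 members against 13.7% of genes. Aldh1a1, Aldh1a2 and Crabp1 were counted as lower, 3 of 9 members against 9.85% of genes, with ratios of 0.43, 0.35 and 0.27. Aldh1a1 lost this count, with ratios of 0.54 and 0.60, when levels were averaged over cells and when cells were thinned to 1000 UMIs. Crabp1, Aldh1a3 and Cyp26b1 lie below 10 CPM over all cells, so 6 of the 9 members belong to that background. Over these 6, the median log2 ratio was 0.42 from P1 to P7 and −0.64 from P7 to P14. Over all 7750 genes it was 0.12 and 0.02. Over all 9 members, which include genes below that limit, it was −0.02 and −0.56.

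The count for Aldh1a3 depended on which cells were kept. When cells with 10% or more mitochondrial UMIs were left out, its P7 to P1 ratio turned to 1.10, and it was 0.79 when every cell was thinned to 1000 UMIs. With no filter on the deposited barcodes the fall was larger, with a log2 ratio of −2.08 against −1.47 in kept cells. The 288 neuron-like cells at P1 had a median of 12.5% mitochondrial UMIs, and 59 of them lay under 10%. The median depth of these neuron-like cells was 21170.5 UMIs.

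The next question was which cells held these transcripts. Stroma-like cells held 59.1% of all UMIs but 89.3% of Aldh1a2 UMIs, 82.2% of Rarb UMIs, 80.5% of Rbp4 UMIs and 76.1% of Crabp2 UMIs. For Aldh1a3, neuron-like cells held 57.4% of the UMIs, beside 3.02% of all UMIs. For Cyp26b1, cochlear duct epithelium-like cells held 31.4% of the UMIs with 2.16% of all UMIs, endothelial-like cells 12.4% and stroma-like cells 37.1%. These shares differed by stage, with 50%, 31.1% and 0% in epithelium-like cells at P1, P7 and P14, 2.21%, 1.18% and 47.9% in endothelial-like cells, and 30.7%, 52.4% and 23.7% in stroma-like cells. Rara lay close to the share of all UMIs, with 60.7% in stroma-like cells.

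**Figure D2:**
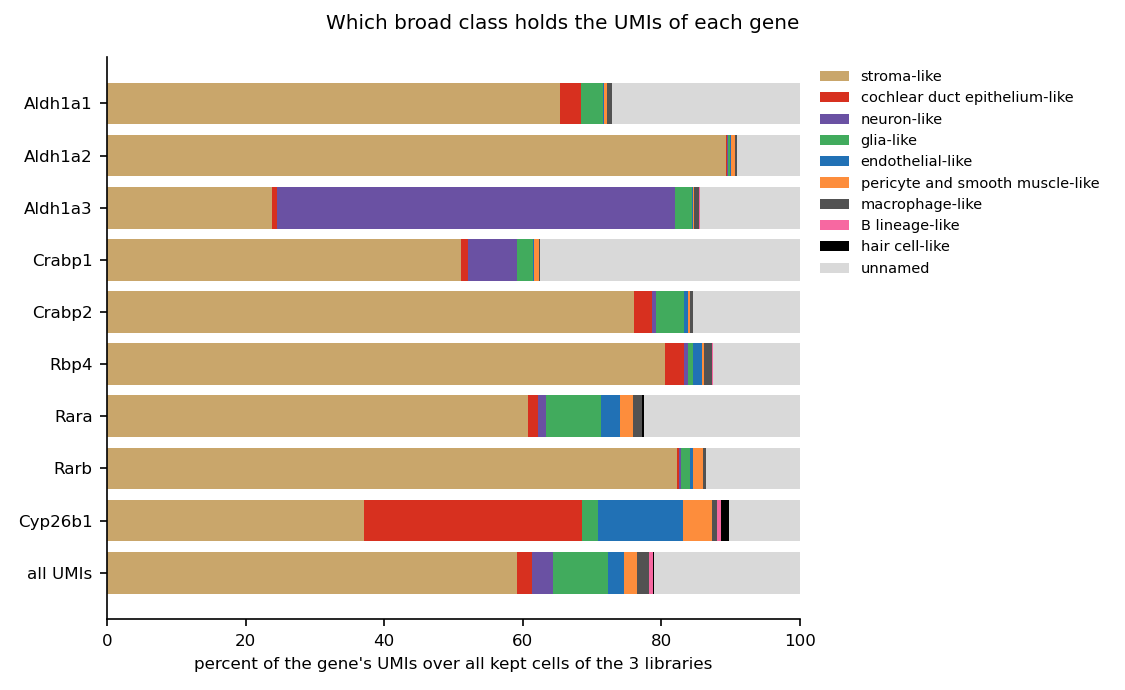
Percent of the UMIs of each gene (horizontal stacked bars, 0 to 100) that lay in each broad cell class over all kept cells, with all UMIs as the lowest bar. Aldh1a3 and Cyp26b1 differ most from the bar of all UMIs, with 57.4% in neuron-like cells for the former and 31.4% in epithelium-like cells for the latter.

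Among the synthesis genes, Aldh1a2 marked particular stroma-like cells. It was the leading gene of 1 cluster, together with Calb2 and Kcnk2, although it had been left out of the genes used for clustering. There it reached 602 CPM (590 to 614) in 2083 cells and 79.5% of cells had a UMI, against 38.1 CPM over all other cells. A second cluster, led by Cav1, Sp5 and Olfm1, had 349 (339 to 359) and another, led by Clec3b, Gpcpd1 and Rarres1 and found at P14, had 223 (193 to 257). The intervals of these 3 did not overlap. The other 8 stroma-like clusters lay between 1.73 and 34.7. After thinning to 1000 UMIs, 39.7%, 25% and 20.6% of cells in the 3 clusters kept a UMI of Aldh1a2, so the order was the same at equal depth, although the intervals of the latter pair overlapped.

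By stage, the Calb2 and Kcnk2 cluster had 561 CPM of Aldh1a2 at P1 (1085 cells) and 648 at P7 (996 cells), a ratio of 1.15 (1.11 to 1.2). The Cav1 and Sp5 cluster had 363 at P1 (1390 cells) and 196 at P7 (140 cells). So Aldh1a2 was not lower at P7 within its highest cluster, while over all stroma-like cells it measured 157 at P1, 105 at P7 and 46.6 at P14. In the other named classes it lay between 1.61 and 23.7 CPM in every library with 50 or more cells. The top of that range was pericyte-like cells at P7.

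Aldh1a1 was highest in a different stroma-like cluster, led by Aard, Col15a1 and Lepr and made almost wholly of P7 cells. It reached 175 CPM (167 to 183) there, with a UMI in 51.6% of 1458 cells, while Aldh1a2 was at 2.86 in the same cells. Conversely, Aldh1a1 was at 5.98 and 3.44 in the 2 early clusters highest in Aldh1a2. The highest levels of these dehydrogenases thus lay in separate stroma-like clusters. The next clusters for Aldh1a1 were unnamed, with 52.2 in dividing cells led by Cenpf, Top2a and Mki67 and 51.3 in cells led by Pcsk1, Gas7 and Ptprz1, and their intervals overlapped. In the latter Aldh1a1 measured 37.0 (32.1 to 42.4) at P1 and 130 (109 to 154) at P7.

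Among the named classes, Aldh1a1 was highest in epithelium-like cells, at 44.6 (38.6 to 51.3), and next in stroma-like cells at 34.6 (33.6 to 35.7). In epithelium-like cells it measured 37.9 at P1, 46.2 at P7 and 105 (65.7 to 159) at P14, the last from 22 UMIs in 53 cells. The P1 and P7 intervals overlapped and the P14 interval lay above both. In stroma-like cells it measured 23.5, 48.1 and 28.4. Neuron-like cells had 2 UMIs and B lineage-like cells at P14 had 0.

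Aldh1a3 had another source again. In neuron-like cells at P1 it measured 178 CPM (168 to 189), and 262 of 288 cells had a UMI (91.0%, exact binomial interval 87.1 to 94.0%). In stroma-like cells at P1, which had a median depth of 6557 UMIs, 1.33% of cells had a UMI. At 1000 UMIs per cell the shares were 17.7% and 0.262%. The next cluster was unnamed, carried both neuron and glia markers, was led by Nefh, Pcsk1 and Pnlip, and had 31.7 at P1 and 34.2 at P7. Next came the Aard and Lepr stroma-like cluster at P7 with 22.6, the cells that were also highest in Aldh1a1. No neuron-like level could be given at P7 or P14, where 0 and 7 such cells were found.

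Rbp4, the carrier of retinol, was highest in stroma-like clusters of the P14 library. The cluster led by Ptgds, Slc7a11 and Slc16a11 had 234 CPM (211 to 258) at that stage and that led by Coch, LOC100911545 and Otos had 176 (161 to 192). At P7 the highest were the cartilage-gene cluster led by Gcg, Car3 and Cnmd with 100.4 and the Aard and Lepr cluster with 77.1. At P1 no stroma-like cluster with 50 cells passed 18.7, the value of the Dlx5, Col11a2 and Aqp1 cluster. Over all stroma-like cells Rbp4 measured 5.80, 46.7 and 181 at the successive stages. The P7 to P1 ratio was 8.06 (7.21 to 9.03), followed by 3.87 (3.59 to 4.17). Within the 6 stroma-like clusters with 50 or more cells at P1 and P7, the P7 to P1 ratio was over 1 in 6, with an interval above 1 in 5, and ranged from 1.62 to 8.21.

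The share of stroma-like cells with a Rbp4 UMI was 3.04%, 15.1% and 15%, and after thinning to 1000 UMIs it was 0.500%, 3.87% and 10.7%. Epithelium-like cells had the opposite order, with 42.6 CPM at P1 and 13.8 at P7. Their shares of cells with a UMI were close, 7.89% (22 cells, 100 UMIs) and 6.45% (14 cells, 25 UMIs). At P14 they had 23.8 from 5 UMIs. Macrophage-like cells at P14 measured 80.0 (58.1 to 107) with a UMI in 11.5% of cells at a median depth of 2200.5 UMIs. B lineage-like cells of the same library had 3.22, with a UMI in 1.39% at a median depth of 3520 UMIs. Unnamed cells of that library had 73.4 (61.2 to 87.3), with a UMI in 6.50%. Of these 492 cells, 282 lay in a cluster led by LOC100910270, Lyz2 and Srgn. The 3 stroma genes Pdgfra, Pou3f4 and Tbx18 summed to 471 CPM in the P14 macrophage-like cells, 30.6 in the B lineage-like cells and 1141 in stroma-like cells, and their part in the Rbp4 level was not tested.

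The binding proteins had unlike patterns. Crabp2 was highest in the Ptgds cluster of P14, at 342 CPM (314 to 371), and in the Calb2 and Kcnk2 cluster, at 228 (221 to 235). In the latter it measured 159 at P1 and 306 at P7, beside a nearly level Aldh1a2. The Cav1 and Sp5 cluster, second in Aldh1a2, had 81.7 of Crabp2, beside 76.9 over all kept cells. In stroma-like cells as a whole Crabp2 measured 73.3, 124 and 143 at the 3 stages. In epithelium-like cells it measured 105, 78.7 and 28.6, the last from 6 UMIs.

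Crabp1 was low everywhere. Its highest cluster was a small unnamed one led by Car2, Apoc4 and Actg2, at 45.0 CPM (33.0 to 59.8) in 145 cells, with 94.6 at P1 and 16.5 at P7. Dividing cells led by Cenpf followed with 24.7 (22.0 to 27.6) and neuron-like cells with 16.0 (13 to 19.5). Within stroma the Cav1 and Sp5 cells differed by stage, with 6.89 at P1 and 57.0 at P7, from 79 and 59 UMIs. At P14 Crabp1 had at most 14 UMIs in any class.

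**Figure D3:**
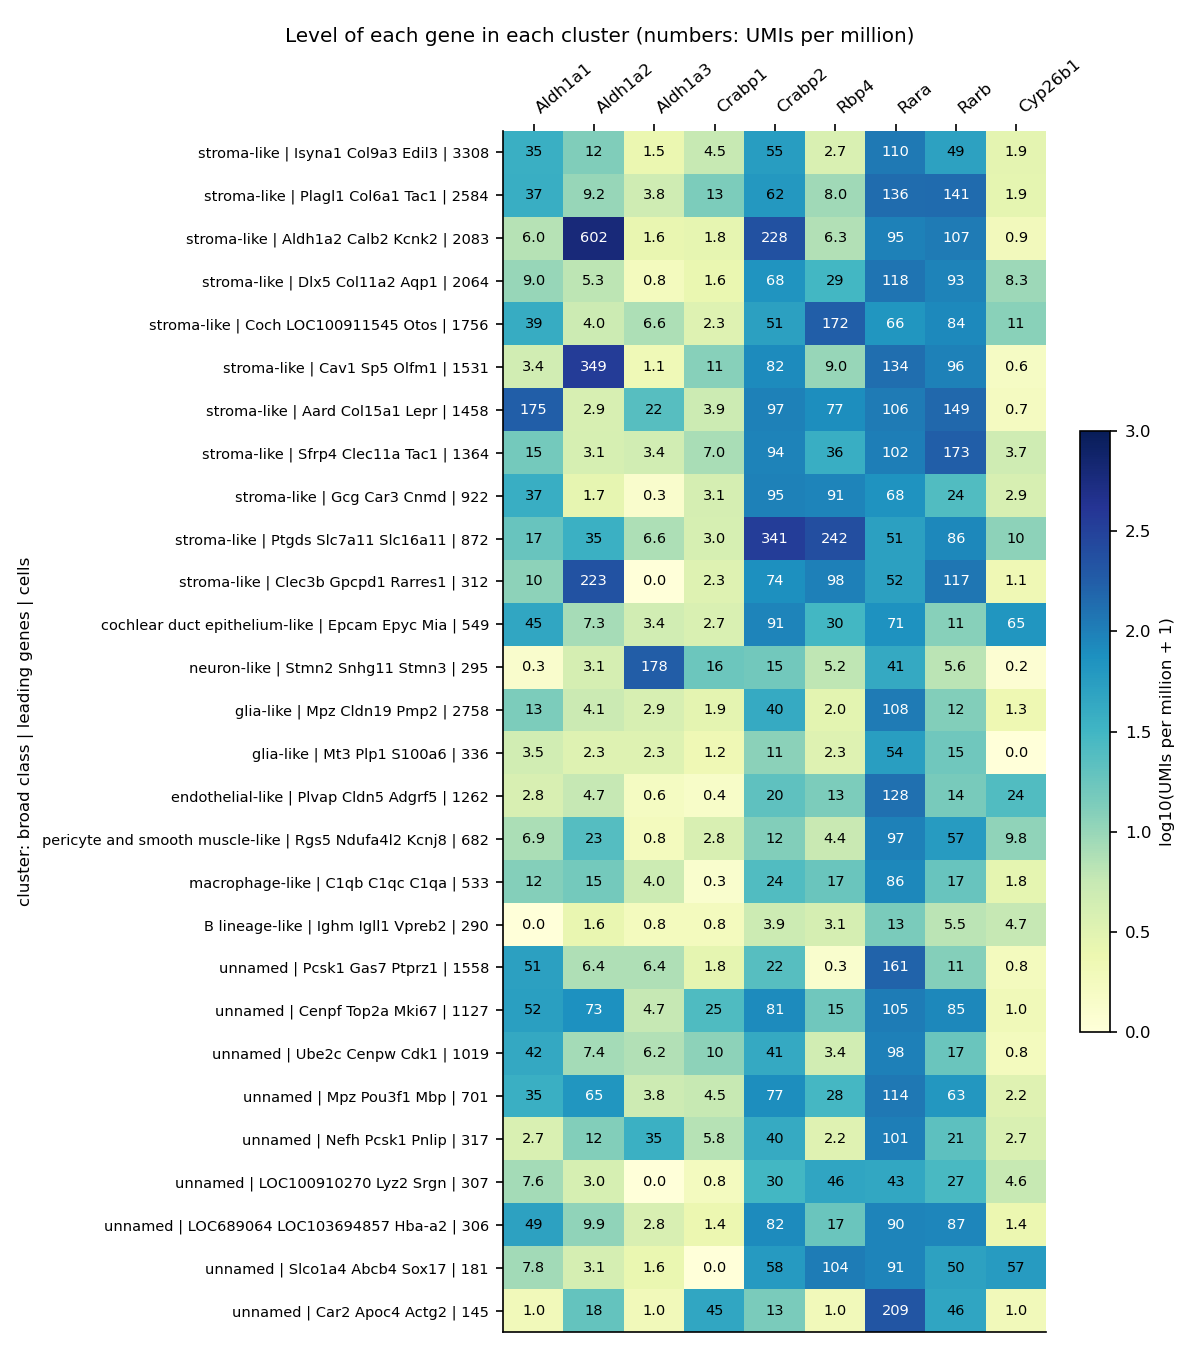
Heat map of CPM (numbers; colour is log10 of the value plus 1) for the 9 genes (columns) in the 28 clusters with 50 or more cells (rows, with broad class, 3 leading genes and number of cells). Aldh1a2, Aldh1a1 and Aldh1a3 peak in different rows, Rara is spread over nearly all rows, and Cyp26b1 is highest in epithelium-like cells.

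The receptors split into a broad one and a stromal one. Rara lay between 13.4 CPM in B lineage-like cells and 209 (183 to 239) in the Car2 and Apoc4 cluster. By broad class it was highest in endothelial-like cells at 128 (118 to 138), followed by stroma-like cells at 109 (107 to 111), glia-like cells at 105 (100 to 110) and pericyte-like cells at 96.6 (87.1 to 107). Intervals of these neighbours overlapped, apart from endothelial-like against stroma-like cells. Neuron-like cells had 41.3 (36.4 to 46.7). In stroma-like, glia-like and endothelial-like cells Rara was lower at P14 than at P1, with 59.7 against 123, 53.9 against 149 and 104 against 144. All 3 pairs of intervals were apart. For stroma and glia these stages lay mostly in different clusters, while the endothelial-like cells formed 1 cluster. At a finer clustering resolution of 1.2, however, endothelial-like cells lay in separate clusters. A cluster of 963 cells was led by Slco1a4, Vwf and Abcb4, and another of 298 by Plvap, Cldn5 and Clec14a. How the stages divided between these clusters was not tested.

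Rarb is itself known as a target of retinoic acid, through a repeat of the receptor half-site spaced by 5 bases (DR5) at its start. The promoter is shown for that element, which was found by search in the RefSeq sequence of build GRCr8 at chr15:11336142-11336441 on the plus strand, 250 bases before to 50 after the annotated start, with the DR5 in capitals.

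Rarb: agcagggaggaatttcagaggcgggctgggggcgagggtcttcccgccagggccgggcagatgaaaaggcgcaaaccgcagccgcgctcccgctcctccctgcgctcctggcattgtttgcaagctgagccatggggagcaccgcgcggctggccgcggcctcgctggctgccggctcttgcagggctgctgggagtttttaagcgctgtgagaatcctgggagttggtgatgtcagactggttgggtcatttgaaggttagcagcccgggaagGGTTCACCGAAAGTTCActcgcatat

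The element spans bases 275 to 291 of the window, at chr15:11336416-11336432. The search used the half-site by its name with spacers of 1, 2 and 5 bases, on both strands, over 33469 promoters of the same length. DR5 was found in 0.382% of them, DR1 in 0.233% and DR2 in 0.170%. Among the 9 members only Rarb held one of these in its window, and among 45 other retinoid genes with a promoter sequence only Cyp26a1 did, a DR5 on the opposite strand at chr1:244883730-244883746, shown for comparison as read along the gene, with all its bases in capitals as part of the DR5.

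Cyp26a1: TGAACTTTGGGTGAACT

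A match is a description of the sequence and no evidence of use in these cells.

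Rarb measured 102 CPM (100.1 to 104) in stroma-like cells and 57.3 (50 to 65.3) in pericyte-like cells. The next class, macrophage-like cells, had 17.1 (12.9 to 22.2), whose interval overlapped those of the endothelial-like, glia-like and epithelium-like cells, the last at 11.2. Neuron-like and B lineage-like cells had 5.55 and 5.50. Within stroma, Rarb was highest in the Sfrp4, Clec11a and Tac1 cluster at 173 (165 to 181), then in the Aard and Lepr cluster at 149 (141 to 156) and the Plagl1, Col6a1 and Tac1 cluster at 141 (135 to 146). The latter pair overlapped. The Calb2 and Kcnk2 cluster, highest in Aldh1a2, had 107, and the Cav1 and Sp5 cluster had 96.4, so Rarb was not highest where Aldh1a2 was. The cartilage-gene cluster led by Gcg was lowest within stroma, at 24.1. Rarb in stroma-like cells was 93.4 at P1, 113 at P7 and 90.6 at P14.

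Among the named classes, Cyp26b1, the breakdown enzyme, had its highest level in epithelium-like cells at P1 and P7. At P14 the highest levels were in pericyte-like and endothelial-like cells. Stroma-like cells had 1.81, 3.34 and 9.10 CPM at the successive stages, with the shares of its UMIs given above. In epithelium-like cells Cyp26b1 measured 77.1 CPM (66.3 to 89.2) at P1 and 57.8 (47.3 to 70.0) at P7. At P14 none of 53 cells had a UMI. By the limit of 3 counts this allows up to 14.3 CPM and 5.66% of cells with a UMI. The P7 point level was 4.04-fold above that limit. The exact upper limits were 17.6 CPM and 6.72%, and the latter overlaps the P7 interval of 6.09 to 14.4% of cells. The 105 UMIs at P7 lay in 21 of 217 cells, up to 16 in 1 cell, and counting intervals do not cover such clumping. The shares concern cells with a UMI, not cells that express the gene. In endothelial-like cells it measured 4.43 from 8 UMIs at P1, 2.61 from 4 UMIs at P7 and 73.3 (59.7 to 89.0) at P14 from 101 UMIs in 916 cells. The P14 to P7 ratio was 28.0 (10.6 to 105).

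The share of epithelium-like cells with a Cyp26b1 UMI was 25.4% (20.4 to 31.0%) at P1 and 9.68% (6.09 to 14.4%) at P7, and 8.76% and 3.16% after thinning. Of endothelial-like cells at P14, 7.64% had a UMI at a median depth of 1116 UMIs, and 7.32% of the 560 deep enough after thinning. B lineage-like cells of the same library had 1.39% at 3520 UMIs, and glia-like cells had 0%. Pericyte-like cells at P14 had 128 CPM (66.1 to 224), but from 12 UMIs in 4 of 64 cells, of which 8 UMIs in 1 cell. At P1 and P7 they had 11.6 and 2.11. An unnamed P14 cluster with endothelial and pericyte markers, led by Slco1a4, Abcb4 and Sox17, had 69.2 at that stage. The 21 hair cell-like cells of P1 held 10 UMIs of Cyp26b1 and 0 of Aldh1a2.

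The epithelium-like cells themselves differed between stages. Kcne1, a potassium channel subunit of the stria vascularis, measured 9.38, 17.1 and 1377 CPM at P1, P7 and P14, and its partner Kcnq1 2.56, 2.20 and 219. Tectb, a tectorial membrane protein, measured 385, 1530 and 4.76, and Sox2, a factor of prosensory and supporting cells, 147, 250 and 14.3. Other markers did not follow, with 1087, 3071 and 8728 for Epyc and 97.6, 114 and 114 for Otog. Of the 18 epithelial markers, 5 were at least 2-fold higher at P14 than at P7, 2 were lower, and 4 had 3 or fewer UMIs at P14. The part of this makeup in the stage levels of Cyp26b1, Crabp2 and Aldh1a1 was not tested. In endothelial-like cells all 7 endothelial markers were found at each stage, with summed levels of 5011, 5988 and 6961, while the summed level of 18 epithelial markers was 17.7, 80.4 and 55.9. Glia markers in the same cells summed to 263, 898 and 5116, and pericyte markers to 29.9, 92.8 and 156. At P14 the glia markers also summed to 3444 in stroma-like cells and 519 in B lineage-like cells, and glia-like cells, at 84437, held 0 UMIs of Cyp26b1. Endothelial-like cells lay in separate clusters at the finer resolution of 1.2. The part of such subtypes in the stage levels of endothelial-like cells was not tested.

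**Figure D4:**
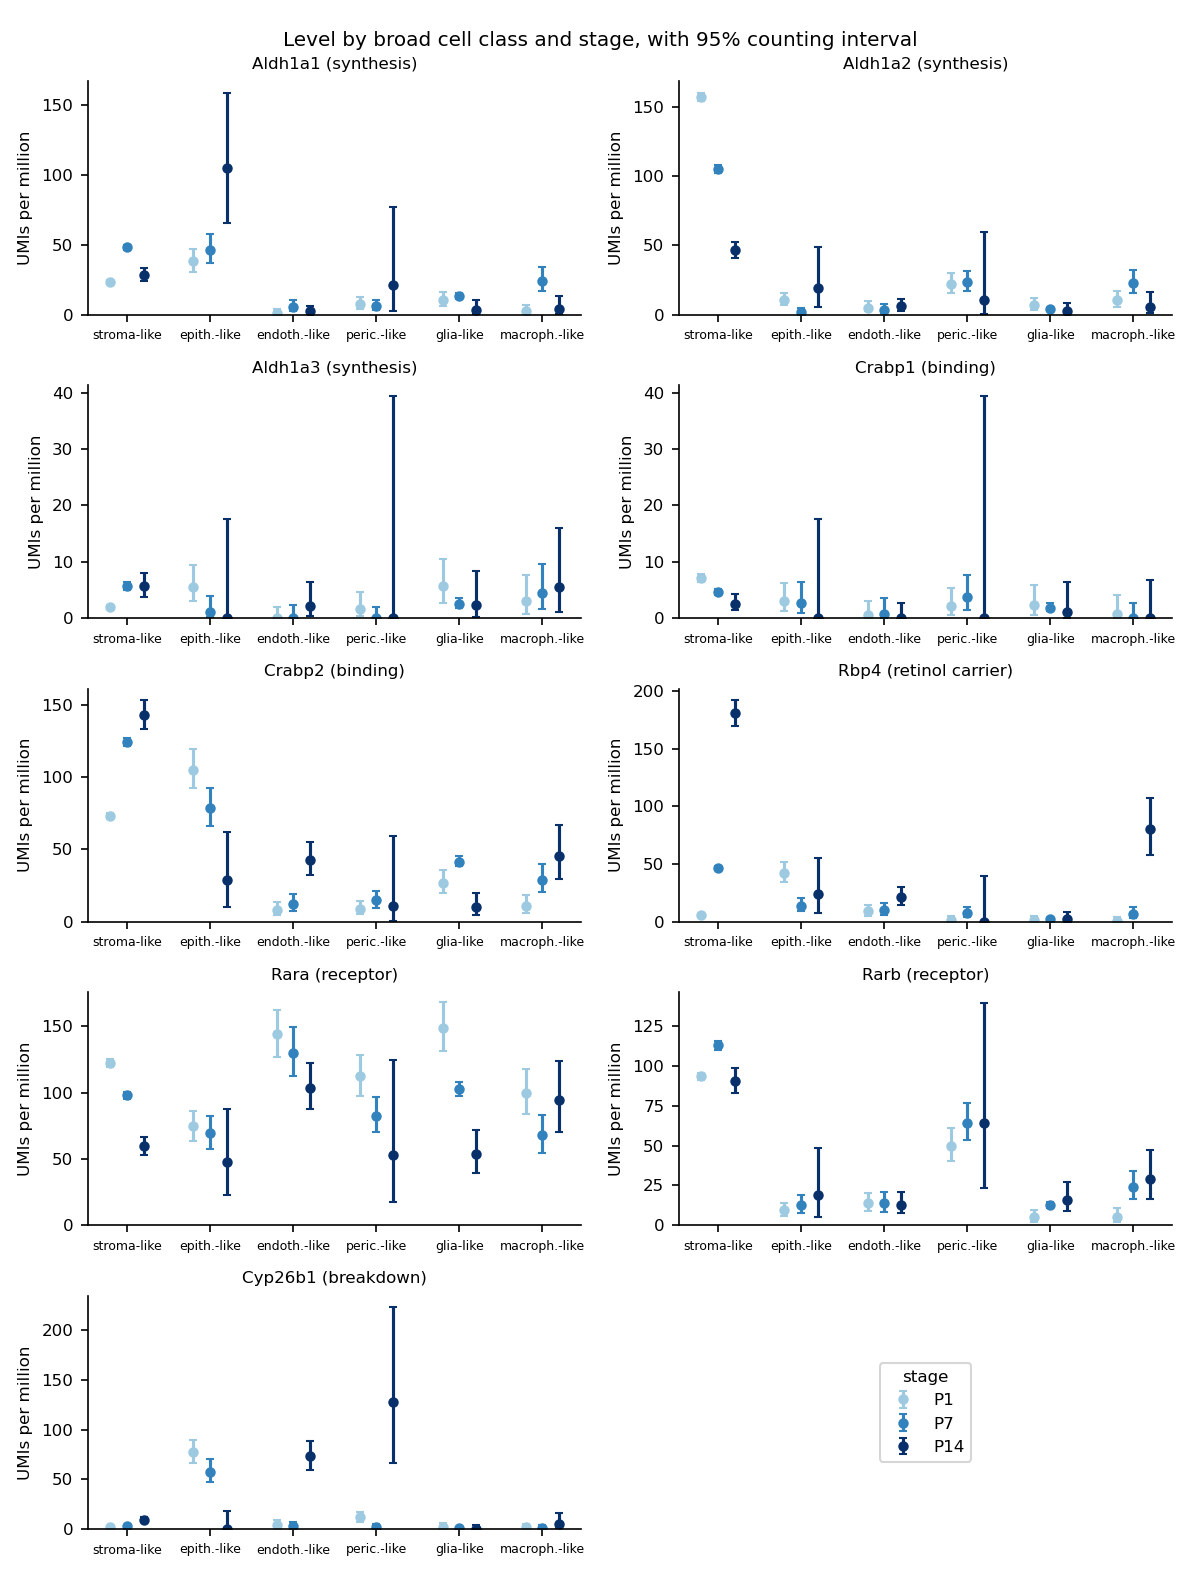
CPM of each gene (vertical axes, linear from 0) in the 6 classes with 50 or more cells at every stage, with P1, P7 and P14 in darkening blue. Points are levels and bars 95% counting intervals. Cyp26b1 lies at 77.1 and 57.8 in epithelium-like cells at P1 and P7 and at 73.3 in endothelial-like cells at P14, and Rbp4 in stroma-like cells is 5.80, 46.7 and 181.

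Within stroma-like cells, 3 of 9 members were at least 2-fold higher at P7 than at P1 (Aldh1a1, Aldh1a3 and Rbp4), where 10.1% of genes were, and 0 were lower, against 4.88%. From P7 to P14, Rbp4 and Cyp26b1 were higher, 2 of 9 against 13.5%, and Aldh1a2 was lower, 1 of 9 against 12.2%. Within endothelial-like cells 0 of 9 members were higher or lower from P1 to P7, against 9.38% and 4.94% of genes. From P7 to P14, Crabp2, Rbp4 and Cyp26b1 were higher there, 3 of 9 against 22.0%, and 0 were lower, against 9.24%. In either comparison Aldh1a1, Aldh1a3 and Crabp1 could not be counted there, with 3 or fewer UMIs in at least 1 of the stages. Within epithelium-like cells, 0 of 9 were higher at P7 than at P1, against 11.1%, and Rbp4 was lower, 1 of 9 against 6.12%. Aldh1a2 and Aldh1a3 could not be counted in epithelium-like cells, with 3 and 2 UMIs at P7. Aldh1a3 was thus lower at P7 over the whole libraries and higher over stroma-like cells, where its ratio was 2.87 (2.32 to 3.58). Within the 6 stroma-like clusters compared between P1 and P7, its ratio was over 1 in 1 cluster, at 3.84 with an interval above 1. It was under 1 in 5, with an interval below 1 in 0 of them, so none of these falls was beyond counting error. The Aard and Lepr cluster, the highest in Aldh1a3 within stroma, was not among the 6, with 34 cells at P1 and 1424 at P7. Its part in the ratio over all stroma-like cells was not tested. Aldh1a1 was higher at P7 in 5 of these 6 clusters, with an interval above 1 in 3, and lower in 1.

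Of 60 other genes of vitamin A and retinoic acid handling, 55 were found by symbol and 23 had 10 or more CPM. From P1 to P7, 5 of the 55 were at least 2-fold higher and 3 lower over whole libraries, and from P7 to P14 11 were higher and 7 lower. Among the 23, which can be set beside the shares of all genes given above, these counts were 2 higher and 0 lower, then 2 higher and 4 lower. Their median log2 ratio, over the 23, was 0.41 and then −0.05. Rdh10, which oxidizes retinol to retinal, measured 18.1, 17.7 and 33.8. Dhrs3, which reduces retinal back to retinol, measured 41.8, 44.4 and 133.

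Stra6, the cell surface receptor for Rbp4, was at 1.66 and 2.61 CPM in endothelial-like cells at P1 and P7 and at 39.2 at P14. The P1 level equals the limit of 3 counts, and the P7 level is close to it. With the stages joined, Stra6 was highest in neuron-like cells at 24.5, then in epithelium-like cells at 18.1 and endothelial-like cells at 12.9. Rbp7, a retinol binding protein, was at 5.54, 11.1 and 138 in endothelial-like cells at the successive stages, and Dhrs3 at 52.1, 61.4 and 133. In all, 7 of the 55 were at least 2-fold higher in endothelial-like cells at P14 than at P7, and Bco2, Adh4 and Fabp5 were lower. Among the 23, 5 were higher and 2 lower, in a class where 22.0% of all genes were higher. Lrp2, the megalin receptor, and Ttr, which binds Rbp4 in blood, were both highest in epithelium-like cells, at 262 and 216. Cyp26a1, a second hydroxylase, measured 1.15, 7.02 and 0.859 over the libraries and was highest in the Sfrp4 and Tac1 cluster at 25.7, the cluster also highest in Rarb. Of 12 listed genes known to respond to retinoic acid, 4 had 10 or more CPM, and they were highest in different clusters. Rarres1 measured 10.1, 35.9 and 265 and reached 1420 in the Clec3b cluster of P14, of which it is a leading gene. Rarres2 measured 116, 185 and 221 and was highest in the Ptgds cluster at 579. Tgm2 was highest in endothelial-like cells at 106, and Tbx1 in the Car2 and Apoc4 cluster at 129.

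Genes with the most similar pattern were sought over the 28 clusters with 50 or more cells, as the Pearson r of log2 levels with 10 CPM added. The clusters share libraries and differ in depth, so r is a description. For Aldh1a2 the 3 nearest were Osr2 (r 0.93), Cfap161 (0.92) and Sp5 (0.86). For Aldh1a1 they were Qpct (0.75), Aard (0.75) and Fgfr1 (0.72). For Aldh1a3 they were Mllt11 (0.93), Fgf12 (0.91) and Nefm (0.91), the last a neurofilament subunit. Rbp4 was nearest to Phyh (0.87), Gjb6 (0.87), which encodes a cochlear gap junction connexin, and Gsta1 (0.87). Crabp2 was nearest to Galm (0.81), Abhd14b (0.80) and Cdkn1c (0.80), and Crabp1 to Psmc1 (0.75), Dok5 (0.71) and Necab2 (0.70). Rara was nearest to Tor2a (0.86), Cnn3 (0.86) and Arl2bp (0.86). Rarb was nearest to Flnc (0.94), C1r (0.92) and Col6a2 (0.92), the last a collagen VI chain. Cyp26b1 was nearest to Lsr (0.87), Cmtm8 (0.86) and F11r (0.86), of which Lsr and F11r encode tight junction proteins.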

How the data were processed

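Each library is 1 pool of 40 rats on the 10x Genomics 3′ V3 platform. Per the labels, the authors processed reads with bcl2fastq and Cell Ranger (3.1.0 in the matrix header) on rn6 and used Seurat 3.1.1; the deposited values are raw UMI counts for every gene in every barcode. The rule by which barcodes were called cells is not given in the sources used here.

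The members, marker lists and retinoid gene list were chosen with earlier results of these data known. Kept cells carried over 500 but under 5000 genes, 500 or more UMIs, and a mitochondrial share below 25%, which left 98005495 UMIs at P1, 93080129 at P7 and 11641065 at P14. Libraries shared 53 (P1 and P7), 16 (P1 and P14) and 19 (P7 and P14) barcode sequences.

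Cells were normalized and clustered with Seurat 5.3.0 in R 4.3.3 (2000 variable genes, of which 21 retinoid genes were removed; 10 principal components; resolution 0.8), giving 29 clusters. A cluster was named from 19 marker lists (168 of 177 genes found) where 1 lineage list led with a mean log2 ratio of at least 1, at least 3 markers 2-fold up, a following list under 0.6 of that mean, and at least 1 marker, and no fewer than any other list, among the 10 leading genes. Otherwise it was called stroma-like where Pdgfra, Pou3f4 and Tbx18 summed to at least 600 CPM, no lineage or cell division list had more of the 10 leading genes than the stromal lists, and its depth was at least 0.333 of its library's median. Clusters with over 50% marked doublets stayed unnamed. This rule was set after the clusters had been seen. Scrublet marked 4.87%, 6.16% and 0.0379% of cells as doublets, the last too low a share to be relied on. Marked cells were kept, and 1 cluster had 86.5% of cells marked.

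CPM is counts per 1000000 UMIs, summed over cells of a class or cluster with at least 50 cells. Poisson and Clopper-Pearson intervals are exact at 95%, and a count of 0 allows 3 counts. Shares of cells were also given after thinning cells to 1000 UMIs. No p-value was computed, since a stage is 1 library and its cells are no replicates. Genes named are the members, the other retinoid genes whose values are given, the 3 leading genes of each cluster described, markers, and the 3 genes nearest to each member over 28 clusters. Alternatives were the 10% mitochondrial limit, leaving out doublets, per-cell means, no filter, thinning, other resolutions and components, and all variable genes. Motifs were searched in RefSeq promoters of GRCr8, while the counts use rn6, so no coordinates of the 2 builds were combined. The ratios were also run on Poisson counts drawn from the pooled profile of all libraries with planted changes. That setting has no clumping of UMIs in few cells and no change in cell makeup, so it cannot speak to either. Other steps used Python 3.11.15, numpy 2.4.6, scipy 1.17.1, pandas 2.3.3, scanpy 1.11.5 and matplotlib 3.10.9. A result for 1 other retinoid gene is not reported here.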

Additional observations from a re-analysis of the deposited data

Results flagged for a closer look

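Barcodes left out for 5000 or more genes held a strong Aldh1a3 signal at P1. In these 384 barcodes it measured 66.6 CPM (62.5 to 71.0), against 14.0 in the 12779 kept cells. They held 953 UMIs of Aldh1a3, and the kept cells 1370.

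For 5 of the 9 members the change between stages pointed in opposite directions in 2 classes, each at least 2-fold, with 20 or more UMIs at 1 of the stages and a counting interval that leaves out 1. By the same rule 4.74% of the 7750 genes at 10 or more CPM did so, and Cyp26b1 lies below that limit. None of these differences between classes was tested. Cyp26b1 had a P14 to P7 ratio of 28.0 in endothelial-like cells. Epithelium-like cells had 0 UMIs at P14, at most 14.3 CPM by the limit of 3 counts, after 57.8 at P7 from 21 of 217 cells. Rbp4 had a P7 to P1 ratio of 8.06 in stroma-like cells and 0.32 in epithelium-like cells. The latter rests on 100 UMIs in 22 cells at P1 and 25 UMIs in 14 cells at P7. Crabp2 had a P14 to P7 ratio of 3.45 in endothelial-like cells and 0.25 in glia-like cells, where the glia-like cells of P7 and P14 lie mostly in different clusters. The former ratio rests on 19 UMIs at P7 and 59 at P14, the latter on 568 and 9. Aldh1a1 had a P14 to P7 ratio of 2.27 in epithelium-like cells and 0.15 (0.018 to 0.59) in macrophage-like cells, from 33 and 2 UMIs. Aldh1a2 had a P7 to P1 ratio of 2.19 in macrophage-like cells and 0.15 (0.030 to 0.51) in epithelium-like cells, from 25 UMIs at P1 and 3 at P7, too few for the 2-fold count. Values in macrophage-like cells rest on 2 to 33 UMIs, and the stroma genes Pdgfra, Pou3f4 and Tbx18 summed to 112 CPM there at P1, 244 at P7 and 471 at P14.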

How the results depend on the processing

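The 1 member lower at P7 than at P1, Aldh1a3, became 0 with a 10% mitochondrial limit, with a mean over cells of the CPM of each cell, and with cells thinned to 1000 UMIs. Its log2 ratio turned from −1.47 to 0.14 under the 10% limit, a limit that leaves 59 of the 288 P1 neuron-like cells. With no filter it was −2.08. With a fold of 1.5, chosen after seeing the data, 3 members were higher and 3 lower at P7 than at P1. From P7 to P14, 2 members were higher under all 6 alternatives. The 3 lower became 2, without Aldh1a1, with per-cell means (ratio 0.54) and with thinning (0.60), and 4 with a fold of 1.5. Crabp2 turned from −0.18 to 0.028 on the log2 scale from P7 to P14 after thinning. The Cyp26b1 ratio of P7 to P1 and the Aldh1a3 ratio of P14 to P7, whose counting intervals include 1, took both signs, and no other log2 ratio changed sign under the alternatives run. Between 7 and 9 of the 9 members kept their highest broad class over 7 alternatives; Rbp4 was the one that moved most often, to epithelium-like cells with the 10% limit and at resolution 1.2 and to a neutrophil-like class with 20 principal components. Aldh1a1 moved at resolution 1.2 and Rara, to glia-like cells, with per-cell means. The level of Aldh1a3 in neuron-like cells ranged from 83.5 to 187 CPM, and that of Cyp26b1 in epithelium-like cells from 59.6 to 70.2 CPM. Depth limits what can be said at P14, where a class of 53 cells without a UMI still allows 14.3 CPM. No paired analysis was possible because each stage has 1 library.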
